A study of Arabidopsis thaliana with 6 samples.

Results

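A set of 10 genes of the chlorophyll pathway was examined in developing seeds of Arabidopsis thaliana, chosen by their locus identifiers: the synthesis genes HEMA1, CHLH, CHLI1, GUN4, CRD1, PORB, PORC and CAO, and the regulators GLK1 and GLK2. Of these 10 genes, 9 were among the 16967 genes of the expression table, and GUN4 (AT3G59400), an activator of magnesium chelatase, was not analysed here. RNA-seq libraries came from seeds of the tt7-7 mutant (3 samples) and of the wild type Col-0 (3 samples), all labelled 8 days after pollination. The tt7-7 samples carry the accession label Col-0, and TT7 codes for a hydroxylase of the flavonoid B ring. Whole seeds hold seed coat, endosperm and embryo together, so fewer green cells and less RNA per green cell cannot be told apart. The labels do not say whether replicates came from separate plants, so the p-values measure the spread between these samples, which may be technical.

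Chlorophyll is built in plastids from glutamate. Glutamyl-tRNA reductase starts a trunk that leads to protoporphyrin, where magnesium chelatase sends the product towards chlorophyll and ferrochelatase sends it towards heme. The later enzymes close the fifth ring, reduce protochlorophyllide in the light, attach the phytol tail and oxidise part of chlorophyll a to chlorophyll b. GLK1 and GLK2 are paired GARP transcription factors that promote chloroplast development and the expression of chlorophyll synthesis and light-harvesting genes. Embryos and seed coats of Arabidopsis are green for part of their development.

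Library totals recovered from the RPKM steps (reads per kilobase of transcript, scaled to the read total of the library) ranged from 15577456 to 20300393 reads in tt7-7 and from 13677094 to 20547689 reads in Col-0. TT7 itself was at 86.0, 97.4 and 103 RPKM in tt7-7 and at 499, 272 and 240 RPKM in Col-0, so the libraries labelled tt7-7 were the lower ones for the mutated gene. The 100 genes with the most reads took 16.1% to 17.2% of the reads in tt7-7 and 24.2% to 34.4% in Col-0. On the deposited scale, the median over the 16663 tested genes of the log2 fold change, tt7-7 minus Col-0, was 0.44. Each log2 fold change is the mean log2(RPKM + 1) of tt7-7 minus that of Col-0, a scale that understates the change of low genes.

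In tt7-7 seeds 4 of the 9 measured members were lower than in Col-0 at a limma adjusted p under 0.05: CRD1, GLK2, PORC and CHLI1. Among all tested genes 8.47% were called lower. A further 4 members, HEMA1, CHLH, PORB and GLK1, had lower means in tt7-7 that did not pass, and CAO had a slightly higher mean that did not pass. No member was called higher, against 51.1% of all tested genes. The members had a median of -0.39. The groups did not overlap for 5 members, all with tt7-7 lower, which held for 9.97% of all tested genes, while 56.2% did not overlap with tt7-7 higher.

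**Figure D1:**
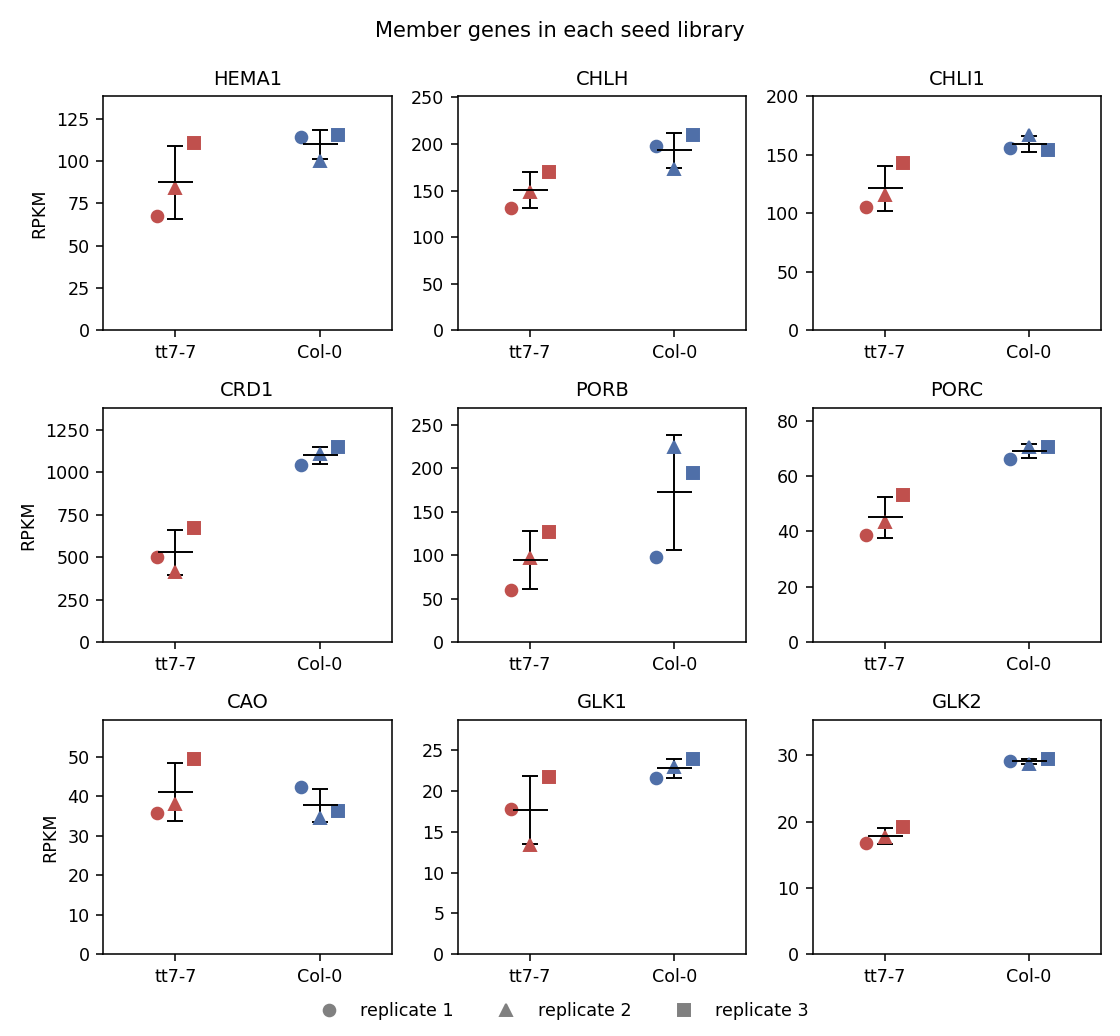
RPKM of each of the 9 measured members in the 3 tt7-7 libraries (red) and the 3 Col-0 libraries (blue). Marker shapes give the replicate number, horizontal bars the mean and error bars the SD. The tt7-7 points lie below all Col-0 points for CHLH, CHLI1, CRD1, PORC and GLK2, and tt7-7 replicate 3 (squares) is the highest tt7-7 library in each of the 9 panels.

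HEMA1 (AT1G58290, TAIR10.1 chr1:21623700-21626402, minus strand) encodes the main glutamyl-tRNA reductase of green tissue, the entry point of the pathway. It was at 67.8, 84.4 and 111 RPKM in tt7-7 replicates 1 to 3, against 115, 99.8 and 115 RPKM in Col-0 replicates 1 to 3. The highest tt7-7 value lay inside the Col-0 range, so the groups overlapped. The log2 fold change of -0.35 (SE 0.186) did not pass, with a limma adjusted p of 0.133.

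Magnesium chelatase inserts magnesium into protoporphyrin and has the subunits CHLH, CHLI and CHLD. CHLH (AT5G13630, chr5:4387307-4392429, minus strand), also known as GUN5 from its part in plastid-to-nucleus signalling, was at 132, 149 and 170 RPKM in tt7-7, against 198, 173 and 209 RPKM in Col-0. The groups did not overlap, but the nearest values were close, and the log2 fold change of -0.36 (SE 0.156) had a limma adjusted p of 0.0695. CHLI1 (AT4G18480, chr4:10201672-10203469, minus strand), the main ATPase subunit, was at 106, 116 and 143 RPKM in tt7-7, against 156, 167 and 154 RPKM in Col-0. The tt7-7 values stayed under the Col-0 range, and the log2 fold change was -0.39 (SE 0.153). Its limma adjusted p of 0.0499 was just inside the threshold, and the call was lost without any one of the libraries tt7-7 replicate 1 or 2 or Col-0 replicate 1, 2 or 3, at adjusted p-values of 0.0693 to 0.180. It was also lost with quantile normalization, with the length trend removed and with a minimum mean of 10 RPKM.

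CRD1 (AT3G56940, chr3:21076505-21078443, plus strand), also called CHL27, is the catalytic subunit of the cyclase that closes the fifth ring. It was at 501, 414 and 669 RPKM in tt7-7, against 1043, 1106 and 1147 RPKM in Col-0. The Col-0 libraries were tight and the tt7-7 libraries spread, yet every tt7-7 value lay well below every Col-0 value. The means were 528 ± 130 RPKM in tt7-7 and 1099 ± 52.3 RPKM in Col-0 (SD, n = 3 each), a ratio of 0.481. The log2 fold change was -1.08 (SE 0.210, limma adjusted p 0.00205), the lowest of the members, and 2.11% of all tested genes had a log2 fold change at or below it. CRD1 was also the most abundant member per length in every library, and took 51.3%, 42.6% and 49.1% of the members' summed RPKM in tt7-7 against 59.0%, 57.4% and 57.9% in Col-0.

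PORB and PORC are light-dependent protochlorophyllide oxidoreductases, the step at which greening needs light. PORB (AT4G27440, chr4:13725546-13727440, plus strand) was at 60.5, 96.5 and 127 RPKM in tt7-7, against 97.7, 224 and 195 RPKM in Col-0. Replicate 1 was the lowest library of both groups, the groups overlapped, and the log2 fold change of -0.83 (SE 0.341) had a limma adjusted p of 0.0599. With voom on the recovered reads PORB passed at -0.85 (limma adjusted p 0.0477). Without Col-0 replicate 1 it passed at -1.20 (limma adjusted p 0.00798), and without tt7-7 replicate 3 at -1.08 (limma adjusted p 0.0317). It did not pass without tt7-7 replicate 1 or 2 or Col-0 replicate 2 or 3, at limma adjusted p-values of 0.0868 to 0.194. Nor did it pass with quantile normalization (limma adjusted p 0.123). Of the 17 alternative settings PORB passed in 6. PORC (AT1G03630, chr1:907523-909650, plus strand) was at 38.6, 43.5 and 53.0 RPKM in tt7-7, against 66.2, 70.3 and 70.4 RPKM in Col-0. Its groups were clearly apart, with a log2 fold change of -0.62 (SE 0.147, limma adjusted p 0.00590). The highest Col-0 library held 2.29 times the lowest for PORB but 1.06 times the lowest for PORC.

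CAO (AT1G44446, chr1:16848308-16851271, minus strand), the oxygenase that makes chlorophyll b, stood apart from the other members in direction. It was at 35.8, 38.0 and 49.4 RPKM in tt7-7, against 42.3, 34.4 and 36.3 RPKM in Col-0. The groups overlapped, and the log2 fold change was 0.11 (SE 0.159, limma adjusted p 0.563). Its sign depended on the scaling between libraries.

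Of the regulators, GLK2 (AT5G44190, chr5:17798262-17800926, plus strand) was at 16.8, 17.7 and 19.1 RPKM in tt7-7, against 29.2, 28.7 and 29.4 RPKM in Col-0. It had the smallest spread of any member in both groups and the lowest adjusted p, with a log2 fold change of -0.67 (SE 0.121, limma adjusted p 0.00135). GLK1 (AT2G20570, chr2:8855302-8857758, plus strand) was at 17.9, 13.4 and 21.8 RPKM in tt7-7, against 21.5, 22.9 and 23.9 RPKM in Col-0. The highest tt7-7 library lay just above the lowest Col-0 library, and the log2 fold change of -0.37 (SE 0.174) had a limma adjusted p of 0.0914. The GLK genes rested on 435 to 999 reads per library, and the most abundant member, CRD1, on 11650 to 33104.

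Exact two-sided permutation tests over the 6 samples gave p = 0.1 for CHLH, CHLI1, CRD1, PORC and GLK2. That is the smallest p which 3 samples against 3 allow, so these tests cannot reach 0.05. They gave 0.2 for HEMA1, PORB and GLK1, and 0.6 for CAO. Each of the 9 members was highest, within tt7-7, in replicate 3, and 7 of them were lowest in replicate 1. Without tt7-7 replicate 3, 8 of the 9 members were called lower by limma, all but CAO. With any other library left out, 3 or 4 were called lower. Of the 16663 tested genes, 1483 were called lower without tt7-7 replicate 3 and 1004 to 1294 with another library left out. CRD1, PORC and GLK2 were called lower in each of the 6 fits that left out a library.

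How far the members lay below Col-0 depended on the scaling between libraries, while the direction of 8 of them did not. Median-ratio scaling moved the median of all tested genes to -0.03, and all 9 members were then called lower, when 27.6% of tested genes were called lower and 26.3% higher. When the 100 highest genes were left out of the library total, 8 members were called lower, with 14.7% of tested genes lower and 40.9% higher. Quantile normalization gave 4, with 21.5% lower and 26.8% higher, and these were CRD1, PORC, GLK1 and GLK2. Removal of each library's trend on transcript length gave 5, with 7.41% lower and 50.9% higher, and moved CHLH, the longest member transcript with 4753 bases, to -1.16. CRD1, PORC and GLK2 were called lower under each of these scalings. CAO was at -0.39 with median-ratio scaling (limma adjusted p 0.0417), -0.10 with scaling outside the 100 highest genes, -0.12 with quantile normalization and 0.03 with the length trend removed.

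**Figure D2:**
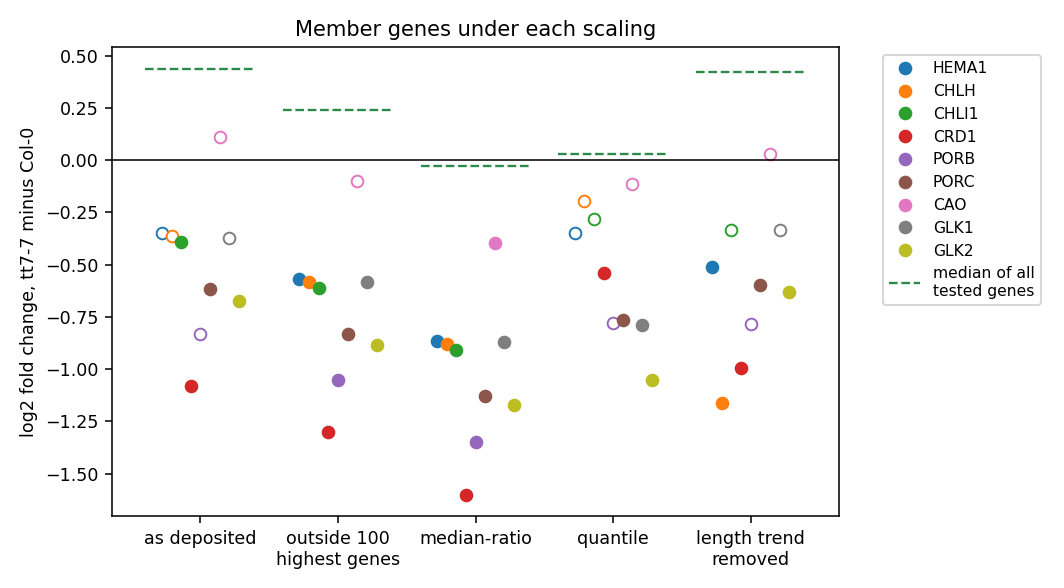
Log2 fold change of each member, tt7-7 minus Col-0, under the deposited scaling and 4 other scalings. Filled points had a limma adjusted p under 0.05, open points did not, and the dashed lines give the median of all tested genes under each scaling. Every member lies below the dashed line under each scaling, and CAO is the highest member under each.

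Upstream sequence is given for CRD1 and CAO, the members with the lowest and the highest log2 fold change on the deposited scale. They were chosen by these values, and CAO was not called on that scale. PORB is given as the measured member with a match to the element reported for GLK-responsive promoters. The searched letters were CCAATC for that element, CACGTG for the G-box, which bZIP and bHLH light-signalling factors bind, and GATAAG for the I-box, each on both strands of the 250 bases before the annotated gene start. The last 100 of these bases are given 5′ to 3′ on the strand of the gene, from the RefSeq genome TAIR10.1, with matches in capitals.
CRD1 (chr3:21076405-21076504, plus strand): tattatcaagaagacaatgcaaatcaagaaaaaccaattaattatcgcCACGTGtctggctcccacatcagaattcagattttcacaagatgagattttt
CAO (chr1:16851272-16851371, minus strand): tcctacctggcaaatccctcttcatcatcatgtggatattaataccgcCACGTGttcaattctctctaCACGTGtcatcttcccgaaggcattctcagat
PORB (chr4:13725446-13725545, plus strand): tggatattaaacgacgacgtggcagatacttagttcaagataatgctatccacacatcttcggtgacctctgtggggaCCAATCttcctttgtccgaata
A G-box began 52 bases before the start in both CRD1 and CAO, with another at 32 bases in CAO. Any part of these matches in the levels of the members was not tested. PORB had CCAATC at 22 and 219 bases before the start. In all, 2 of the 10 members had a G-box match, 2 had a CCAATC match (PORB and GUN4) and 1 had an I-box match (GLK1). The windows of HEMA1, CHLH, CHLI1, PORC and GLK2 held no match. Of the windows of 27443 nuclear protein-coding genes, 6.49% held a G-box, 10.2% held CCAATC and 12.3% held GATAAG. For the 16597 of these genes in the expression table the shares were 7.64%, 10.4% and 12.3%. The windows of CHLI1, GUN4, CRD1, PORB and PORC overlapped a neighbouring annotated gene. The matches describe letters in these windows only.

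The other genes of the pathway were taken from lists of 54 genes, of which 48 were tested: 12 were called lower, 12 higher and 24 did not pass. Among all tested genes 8.47% were called lower and 51.1% higher. The median log2 fold change of the 48 was 0.03, between the members' -0.39 and the 0.44 of all tested genes. Of the 12 called higher, HEMF2 was in the table through tt7-7 only, which leaves 11. Median-ratio scaling gave 28 lower and 5 higher, against 27.6% and 26.3% of all tested genes. Quantile normalization gave 18 and 5, against 21.5% and 26.8%. The total without the 100 highest genes gave 17 and 9, against 14.7% and 40.9%. HEMF2 is among the genes called higher under each of these scalings. Without tt7-7 replicate 1 or 2 the count called lower was 6. With single libraries left out, 1004 to 1483 of the 16663 tested genes were called lower. In the chlorophyll branch after protoporphyrin, 7 of 9 further genes were called lower and 0 higher, with a median of -0.56, where 8.47% of all tested genes were called lower. Without tt7-7 replicate 1 the count was 3, and without tt7-7 replicate 2, Col-0 replicate 2 or Col-0 replicate 3 it was 4. In the trunk before it, 3 of 12 were called lower and 3 higher, or 2 higher without HEMF2. Median-ratio scaling gave 8 lower and 1 higher in the trunk and quantile normalization 6 and 1, the 1 higher being HEMF2 each time. Without tt7-7 replicate 1, tt7-7 replicate 2 or Col-0 replicate 2 the trunk count called lower was 1.

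In the chlorophyll branch the lowest value beside CRD1 was that of YCF54 (AT5G58250), a small protein needed for the same cyclase, at 76.9, 65.8 and 97.6 RPKM in tt7-7 against 126, 195 and 158 RPKM in Col-0. Its log2 fold change was -0.98 (SE 0.203, limma adjusted p 0.00291). CHLP (AT1G74470), the geranylgeranyl reductase that supplies the phytol tail, fell to 182 ± 42.1 RPKM in tt7-7, against 322 ± 23.3 RPKM in Col-0 (SD, n = 3 each), a log2 fold change of -0.84 (limma adjusted p 0.00398). CHLI2 (AT5G45930), the minor ATPase subunit of magnesium chelatase, changed by -0.71. CHLM, the methyltransferase between the chelatase and the cyclase, changed by -0.56, LIL3.1, a thylakoid protein that binds CHLP, by -0.63, and the divinyl reductase DVR by -0.42, all with limma adjusted p-values under 0.05. The call of CHLM was lost without tt7-7 replicate 1 (limma adjusted p 0.0614). That of LIL3.1 was lost without tt7-7 replicate 1 or 2 or Col-0 replicate 2 or 3, at 0.0529 to 0.0821, and that of DVR without any library other than tt7-7 replicate 3, at 0.0585 to 0.157. The genes of this branch that did not pass were CHLD at 0.16 and the chlorophyll synthase CHLG at 0.01, both named after their values were seen. PORA (AT5G54190), the form of the oxidoreductase known from etiolated seedlings, was not analysed here.

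**Figure D3:**
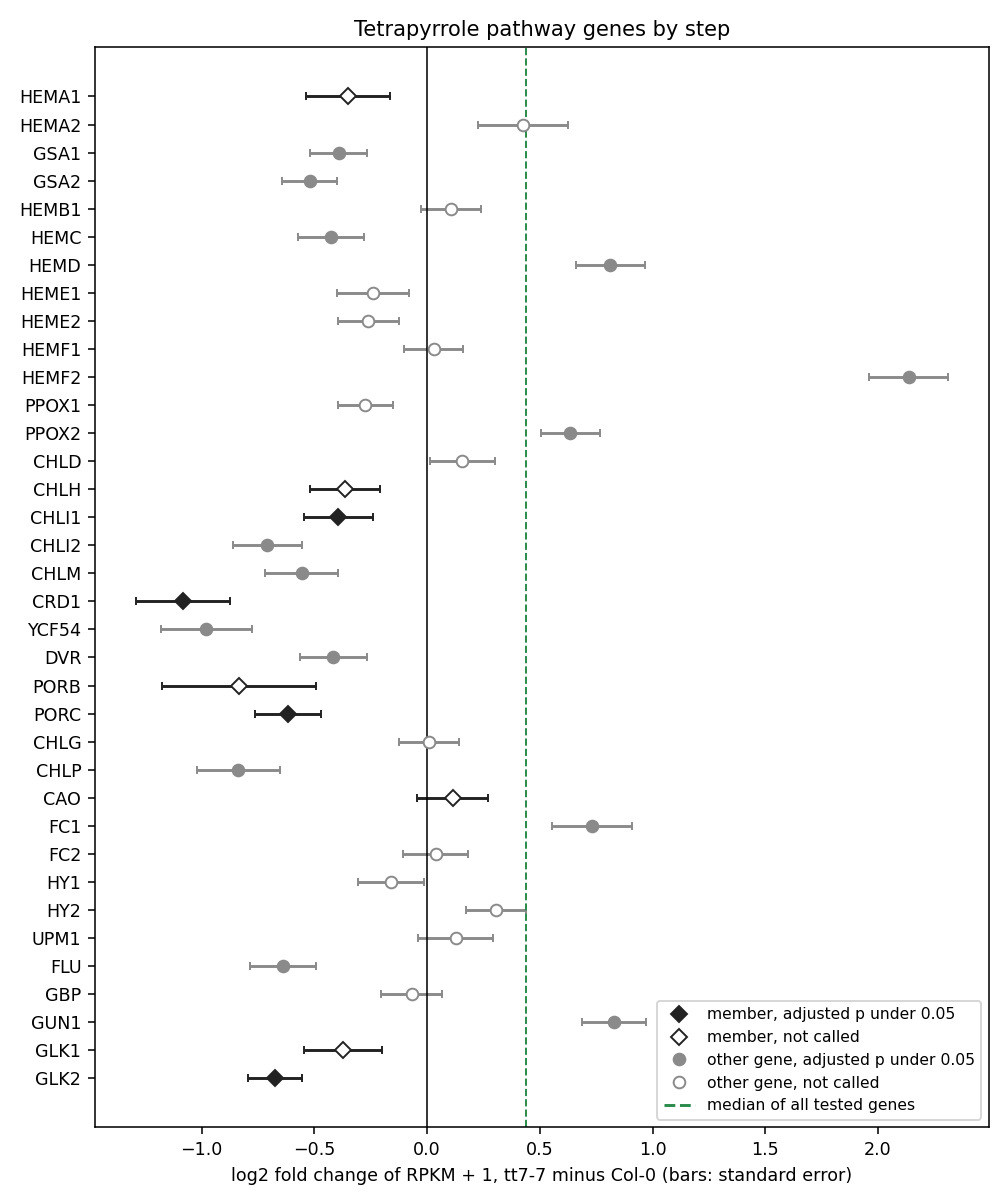
Log2 fold change of pathway genes, tt7-7 minus Col-0, ordered from the entry of the trunk at the top through the chlorophyll branch to the heme branch, feedback genes and GLK regulators. Diamonds are members, circles other genes, filled symbols have a limma adjusted p under 0.05, bars are standard errors and the dashed line is the median of all tested genes at 0.44. CHLD lies above 0, each symbol from CHLH down to PORC lies below 0, and the symbols of the trunk and of the heme branch lie on both sides.

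In the trunk, GSA1 and GSA2, which make 5-aminolevulinate after HEMA1, were both lower, at -0.39 and -0.52 (limma adjusted p 0.0238 and 0.00584). HEMC, the porphobilinogen deaminase, changed by -0.43 (limma adjusted p 0.0298). GSA1 was no longer called without tt7-7 replicate 1 or 2 or Col-0 replicate 2, at adjusted p-values of at least 0.0765, nor HEMC without these or Col-0 replicate 3, at 0.0579 to 0.123. HEMD, the uroporphyrinogen synthase, was higher, at 12.9, 12.0 and 16.9 RPKM in tt7-7 against 7.49, 7.29 and 7.45 RPKM in Col-0, a log2 fold change of 0.81 (limma adjusted p 0.00171). HEMF2 (AT4G03205), annotated as a coproporphyrinogen oxidase beside the main gene HEMF1, was at 3.69, 5.56 and 3.60 RPKM in tt7-7 against 0.140, 0.210 and 0.208 RPKM in Col-0. HEMF2 was in the table through tt7-7 alone, so its difference is given as a description. PPOX2, a protoporphyrinogen oxidase, was higher at 0.64 (limma adjusted p 0.00261), while PPOX1, the plastid form, was at -0.27 and did not pass (limma adjusted p 0.0795). HEMA2, the glutamyl-tRNA reductase known from non-green tissue, was at 0.43 and did not pass (limma adjusted p 0.0907).

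Beyond the chlorophyll branch, FC1, the ferrochelatase of the heme branch that is not tied to green tissue, was higher at 37.5, 55.6 and 39.7 RPKM in tt7-7 against 29.5, 22.6 and 25.8 RPKM in Col-0, a log2 fold change of 0.73 (limma adjusted p 0.00645). FC2, its paralogue of green tissue, was at 0.04 and did not pass. With median-ratio scaling FC2 was called lower, at -0.47 (limma adjusted p 0.00902). FLU, which restrains glutamyl-tRNA reductase in the dark, was lower at -0.64 (limma adjusted p 0.00466), and GUN1, a plastid protein of retrograde signalling, was higher at 0.83 (limma adjusted p 0.00108), a call lost with the length trend removed (0.0501). Of 11 chlorophyll turnover genes, 2 were called higher and 1 lower, against 51.1% and 8.47% of all tested genes. Median-ratio scaling gave 0 higher and 6 lower, against 26.3% and 27.6% of all tested genes. Quantile normalization gave 0 and 4, against 26.8% and 21.5%. The total without the 100 highest genes gave 0 and 2, against 40.9% and 14.7%. The magnesium dechelatase SGR1 was at 0.47, the chlorophyll b reductase NOL at 0.41 and the red chlorophyll catabolite reductase RCCR at -0.51. NOL was no longer called without tt7-7 replicate 1 or 3 or Col-0 replicate 3, nor RCCR without tt7-7 replicate 2 (limma adjusted p 0.0678). Of 11 other greening regulators 8 were tested, 5 were called higher and 0 lower. These were FAR1 at 1.35, FHY3 at 1.02, COP1 at 1.01, HY5 at 0.58 and ABI4 at 0.56, the last not called without tt7-7 replicate 1 or 3 or Col-0 replicate 1 or 3. FHY3 and FAR1 are light-signalling factors, COP1 a ubiquitin ligase that degrades light-signalling factors, and HY5 one of the factors it degrades. For a list read against the 51.1% of all tested genes that were called higher, 5 of 8 lies close to the background. Median-ratio scaling left FAR1, FHY3, COP1 and GUN1 called higher, but not FC1, HEMD, PPOX2, SGR1, NOL, HY5 or ABI4.

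Ratios of 2 genes within a library do not change when the whole library is multiplied by 1 factor, and 9 were compared. Quantile normalization and removal of the length trend do change them. For 6 of them the groups did not overlap, and the exact permutation p, two-sided, was 0.1 each, the smallest possible, and 0.15 after Benjamini-Hochberg adjustment over the 9. None could reach 0.05. Groups without overlap were common: for single genes this held for 9.97% of all tested genes with tt7-7 lower and 56.2% with tt7-7 higher. The share over ratios of other gene pairs was not computed. The HEMA1 to HEMA2 ratio was 11.1, 8.63 and 10.5 in tt7-7, against 16.3, 18.4 and 18.9 in Col-0. The PPOX1 to PPOX2 ratio was 3.47, 3.65 and 3.78 in tt7-7, against 6.38, 7.64 and 7.78 in Col-0. In both pairs every tt7-7 ratio lay below every Col-0 ratio. The FC1 to FC2 ratio was 1.41, 1.83 and 1.16 in tt7-7, against 0.898, 0.782 and 0.957 in Col-0, so the more abundant ferrochelatase transcript per length was FC1 in tt7-7 and FC2 in Col-0. Set against the chelatase subunit at the branch point, the FC2 to CHLH ratio was 0.203, 0.204 and 0.201 in tt7-7, against 0.166, 0.168 and 0.129 in Col-0, and the CAO to CHLH ratio was 0.272, 0.255 and 0.290 in tt7-7, against 0.213, 0.199 and 0.174 in Col-0. In alternatives added after the data were seen, quantile normalization turned the log2 difference of FC2 to CHLH to -0.073, against 0.41 as deposited, and brought that of CAO to CHLH to 0.079, against 0.48, and that of HEMA1 to HEMA2 to -0.22, against -0.83. With the length trend removed, FC2 to CHLH was at 1.15 and CAO to CHLH at 1.19.

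**Figure D4:**
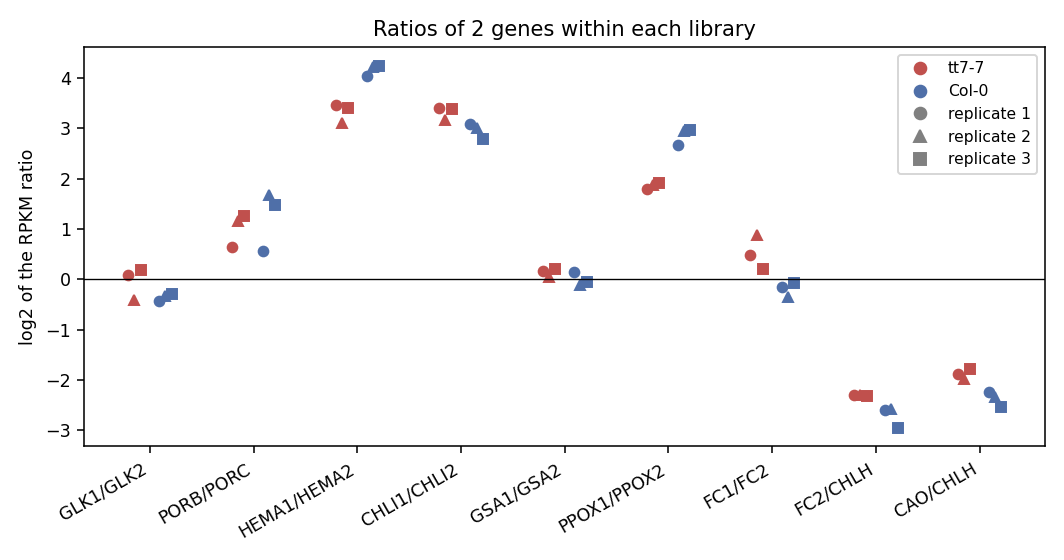
Log2 of the RPKM ratio of 2 genes within each library, for tt7-7 (red, left) and Col-0 (blue, right), with marker shapes for the replicate number. The groups do not overlap for HEMA1/HEMA2, CHLI1/CHLI2, PPOX1/PPOX2, FC1/FC2, FC2/CHLH and CAO/CHLH, and overlap for GLK1/GLK2, PORB/PORC and GSA1/GSA2.

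The CHLI1 to CHLI2 ratio was 10.5, 8.99 and 10.4 in tt7-7, against 8.48, 7.97 and 6.92 in Col-0, so every tt7-7 ratio lay above every Col-0 ratio. CHLI1 and CHLI2 share 81.8% of their aligned coding bases and an exact run of 44 bases, and HEMA1 and HEMA2 share 82.3% and a run of 49 bases, so some reads of these pairs could have been divided between them. The GLK1 to GLK2 ratio was 1.06, 0.754 and 1.14 in tt7-7, against 0.738, 0.799 and 0.812 in Col-0, and the groups overlapped (exact permutation p 0.3, adjusted 0.338). The lower call of GLK2 and the missing call of GLK1 thus do not show that they differ from each other. The PORB to PORC ratio was 1.57, 2.22 and 2.40 in tt7-7, against 1.48, 3.19 and 2.77 in Col-0 (exact permutation p 0.6, adjusted 0.6). GSA1 to GSA2 overlapped as well, with an adjusted p of 0.257. Among subunits of magnesium chelatase, the CHLH to CHLD ratio was 4.52, 4.66 and 4.41 in tt7-7, against 7.26, 5.50 and 6.96 in Col-0, a comparison added after the values were seen and not tested. Of the ratios added in the same way, CHLI1 to CHLD and CRD1 to CHLM did not overlap, and CRD1 to YCF54 overlapped.

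The chlorophyll a/b-binding proteins, which hold the pigment in the antenna, had a lower median than the members. Of 20 genes 19 were tested, 18 were called lower and 0 higher, against 8.47% and 51.1% of all tested genes, with a median log2 fold change of -1.29 and a range of -1.62 to -0.54. Quantile normalization gave 13 called lower and a median of -0.77, and median-ratio scaling 18 and -1.81. Among all tested genes these scalings called 21.5% and 27.6% lower. LHCB2.1 was at -1.55, LHCB6 at -1.29 and LHCA2 at -1.19, while reads of near-identical copies such as LHCB1.1 to LHCB1.3 could have been divided between them. Their summed RPKM was 9.97, 11.4 and 9.56 times that of the members in tt7-7, against 13.9, 15.3 and 16.0 times in Col-0. The groups did not overlap. For single genes this held for 9.97% of all tested genes with tt7-7 lower and 56.2% with tt7-7 higher. The share over other such ratios was not computed. The ratio of the sums was added after the values were seen and was not tested. CRD1 alone took 42.6% to 59.0% of the members' summed RPKM.

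Across the 6 libraries, 28 pairs of the 8 members other than CAO had Pearson correlations of log2(RPKM + 1) from 0.62 to 0.97, with a median of 0.84. The 8 pairs with CAO ranged from -0.19 to 0.44. These values describe 6 points in 2 groups that share libraries and depth. Genes most like CHLH among 9734 ranked genes were AT5G19120 (r = 0.997), AT5G14740, the carbonic anhydrase CA2 (0.995), and AT1G23310, the photorespiratory aminotransferase GGT1 (0.992). Genes most like GLK2 were AT1G06680, the photosystem II subunit PSBP-1 (0.997), AT1G12900, the plastid glyceraldehyde-3-phosphate dehydrogenase GAPA-2 (0.996), and AT3G50685 (0.995). Genes most like GLK1 were AT5G01640, named PRA1.B5 (0.990), AT1G12805 (0.988) and AT2G23610, the methyl esterase MES3 (0.984). With 6 libraries such values are common, and 5.70% of the ranked genes had an r above 0.9 with GLK2, 2.27% with CHLH and 1.82% with GLK1.

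Some markers of other seed tissues and of the silique wall differed between the genotypes. They are to be read against the 51.1% of all tested genes called higher. Of 10 seed coat markers 6 were called higher in tt7-7, with a summed level of 1125 to 1463 RPKM in tt7-7 and 579 to 871 RPKM in Col-0, and these 6, namely BAN, TT12, AHA10, TT2, TT16 and TT1, act in or regulate proanthocyanidin formation in the seed coat. TT10, GL2, MUM4 and MUM2 were not called. AHA10, TT16 and TT1, and the endosperm markers FIS2 and FWA, were in the table through tt7-7 only, the group where they are higher, so their calls support nothing. Of 9 endosperm markers 6 were tested and 3 were called higher, FIS2, FWA and MYB118, with summed levels of 194 to 231 RPKM in tt7-7 and 83.2 to 184 RPKM in Col-0. Of 6 silique wall markers 5 were tested and 4 called higher, SHP1, SHP2, IND and RPL, with 125 to 127 RPKM in tt7-7 and 60.9 to 70.4 RPKM in Col-0. Of 9 embryo markers 2 were tested and neither was called, with 4.63 to 5.41 RPKM in tt7-7 and 3.91 to 5.20 RPKM in Col-0, so the embryo share could not be followed. Median-ratio scaling left 6 seed coat, 2 endosperm and 2 silique wall markers called higher, where 26.3% of all tested genes were called higher. These 6 include AHA10, TT16 and TT1, and the 2 endosperm markers include FIS2. The same scaling called MUM4 and 1 of the 2 embryo markers lower, where 27.6% of all tested genes were called lower. Quantile normalization also called 1 embryo marker lower, where 21.5% of all tested genes were called lower. The summed levels also hold the markers in the table through tt7-7 only. No tested marker was at 0. Their part in the lower levels of the members was not tested.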

How the data were processed

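The authors deposited 1 table of RPKM values per gene with decimal commas. Per the submitters' processing notes, cutadapt, FastQC, HISAT2, HTSeq and DESeq2 were used with genome build TAIR10. Their settings, strandedness and annotation were not given in the sources used here. For each gene, 1 group or both had no sample under 2 RPKM. Gene lengths, names and sequences came from RefSeq TAIR10.1, matched by locus identifier (16857 identifiers matched). With the longest RefSeq transcript as length, reads came out whole within 0.02 for 16855 genes (99.3%), which gave the library totals.

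The main test was limma 3.58.1 (R 4.3.3) with an intensity-dependent prior variance on log2(RPKM + 1) for the 16663 genes with a mean of at least 2 RPKM, two-sided, adjusted by Benjamini-Hochberg over all tested genes, threshold 0.05, no covariate. It was tested on simulated reads with as many raised as lowered genes, so that test does not bear on the scaling between these libraries. Ratios used exact permutation tests. The rest used pandas 2.3.3, numpy 2.4.6, matplotlib 3.10.9 and scipy 1.17.1 in Python 3.11.15. Genes named were the members, their paralogues and the genes of the ratios, up to 6 called genes per list in order of p, and the 3 genes most like CHLH, GLK1 and GLK2 with a mean of at least 10 RPKM. The members and lists were chosen with earlier results of these data known. Other settings tried were pseudocounts, filters, scalings, voom on recovered reads, no variance trend, a replicate block and each sample left out. Same-group libraries differed beyond sampling noise, with a chi-square per degree of freedom of 22.4 to 163, so none was counted as a duplicate.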

Additional observations from a re-analysis of the deposited data

How the results depend on the processing

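Pseudocounts of 0.1 and 0.5 RPKM, no filter and a variance prior without trend changed no call among the 63 named genes. Members called lower numbered 4 as reported, 9 with median-ratio scaling, 8 with scaling outside the 100 highest genes, and 3 to 8 with single samples left out, the 8 without tt7-7 replicate 3. Pathway genes called lower numbered 12 as reported and 28 with median-ratio scaling, and 6 to 13 with single samples left out, the 6 without tt7-7 replicate 1 or 2. Of the 16663 tested genes, 1412 were called lower as reported, 4596 with median-ratio scaling and 2446 with scaling outside the 100 highest genes. With single samples left out the number was 1004 to 1483. Pathway genes called higher numbered 12 as reported, 7 with a mean of at least 10 RPKM, where 35 of the genes were tested, and 5 with median-ratio scaling or quantile normalization. The 12 and the 5 include HEMF2, which was in the table through tt7-7 only.

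Signs turned as follows. With median-ratio scaling CAO was at -0.39, HEMA2 at -0.0304, FC2 at -0.47, SGR1 at -0.027 and NOL at -0.075. With quantile normalization CAO was at -0.12, HEMA2 at -0.13, FC2 at -0.27, NOL at -0.080 and ABI4 at -0.0028. With scaling outside the 100 highest genes CAO was at -0.10 and FC2 at -0.17, and with the length trend removed FC2 was at -0.010 and AT5G01640 at 0.056. With single samples left out CAO ranged from -0.025 to 0.20, FC2 from -0.0485 to 0.126 and the log2 difference of the PORB to PORC ratio from -0.55 to 0.0051. Chosen after the data were seen, quantile normalization of the ratios turned the log2 difference of FC2 to CHLH to -0.073. The causes were not tested.

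Same-numbered samples had correlations of their deviations from the group mean of 0.212, -0.190 and 0.477, so the replicate numbers were not taken to pair the samples. With the replicate block 5 members were called lower, PORB being added (limma adjusted p 0.00189). That fit called 1583 of the 16663 tested genes lower. The members rested on at least 435 reads per library, and the part of depth in the missing calls was not tested.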
